A study of Saccharomyces cerevisiae with 12 samples.

Results

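The comparison described here is a difference of differences between 2 chromatin mutants of budding yeast: the change in RNA of H2AZ_4KR against its own wild type, minus the change of Ino80_K929R against its own wild type. All 12 of the 12 RNA-seq libraries of the series entered it, 3 in each of 4 groups, joined by gene identifier from 2 count tables. H2AZ_4KR carries the substitution that its name gives, arginine for 4 lysines of the histone variant H2A.Z, and WT_H2AZ is its wild type. Ino80_K929R carries arginine for the lysine that its name gives in the remodelling ATPase Ino80, and WT_Ino80 is its wild type. All 4 groups share the S288C-derived haploid strain background BY4741, mid-log growth in the rich glucose medium YPD and no treatment. Total RNA was extracted and libraries were made with an HTP KAPA kit. Whether the replicates are separate cultures, how many clones were used and how the alleles were introduced are points the labels leave unstated. P-values therefore measure only the spread between these libraries, which may be technical.

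H2A.Z replaces the canonical histone H2A in nucleosomes beside many promoters, where the SWR1 complex deposits it. Lysines of its N-terminal tail are acetylated, in yeast mainly by the NuA4 acetyltransferase. INO80 is a related remodelling complex that slides nucleosomes and has been linked to the turnover of H2A.Z, and Ino80 is its motor. A gene that answers both mutations alike has a difference near 0 even when both change it, so the comparison picks out genes on which the mutations part.

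The groups differed in how closely their replicates matched, and this sets the precision of every value below. Libraries held 17253140 to 20164258 counted fragments. The biological coefficient of variation, the replicate spread of a typical gene, was 0.149 in H2AZ_4KR, 0.13 in WT_H2AZ, 0.225 in Ino80_K929R and 0.284 in WT_Ino80. WT_Ino80 replicate 1 correlated with its own replicates at r = 0.917 and 0.947, and Ino80_K929R replicate 3 with its own at 0.939 and 0.953, across genes on the log2 scale. Genes known to be on in a cells, such as MFA1 and STE2, summed to 806.5 to 2016 CPM (fragment counts scaled to a common library size) in every library. The 4 alpha-cell genes summed to 56.2 to 76.8 CPM.

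The effects of the mutations were called different for 265 of 6235 genes tested, 4.25% of them, with the edgeR quasi-likelihood test. A call needed more than a 1.5-fold difference and a p under 0.05 after Benjamini-Hochberg adjustment. In cultures measured in bulk, fewer cells expressing a gene and less RNA per cell cannot be told apart. The H2AZ_4KR effect was the higher one for 124 genes (1.99%) and the lower one for 141 genes (2.26%). Genes called higher had median log2 changes of 0.72 in H2AZ_4KR and -0.46 in Ino80_K929R. Genes called lower had median log2 changes of -0.87 in H2AZ_4KR and 0.30 in Ino80_K929R. Most calls lay near the threshold: 218 of the 265 had an adjusted p between 0.025 and 0.05, and 8 had one below 0.01. The number called was 26 to 121 without any 1 library of H2AZ_4KR, WT_H2AZ or Ino80_K929R replicate 1 or 2, 361 to 429 without any 1 WT_Ino80 library and 595 without Ino80_K929R replicate 3. Scaling by total counts alone gave 110 higher and 274 lower, and a median difference of all genes of -0.20 in place of -0.02 on the log2 scale, so the balance of the directions rests on the scaling.

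Most called genes were also called between the 2 H2AZ groups, which does not say which of these groups moved. LEU2 RNA, absent from WT_H2AZ only (below), differs between the same groups. The substitution and that difference cannot be told apart in this contrast. Of the 265, 163 were also called in H2AZ_4KR against WT_H2AZ in the same fit, 2 were called in Ino80_K929R against WT_Ino80 (INO80 itself and COS8), and 100 were called in neither mutant on its own. The H2AZ_4KR effect was the larger in size for 217 of them. The fit called 346 genes in H2AZ_4KR (5.55%), 119 up (1.91%) and 227 down (3.64%), and 2 in Ino80_K929R (0.0321%). Of the 346, 183 did not pass the test of the difference, so a change called in H2AZ_4KR only was not shown to differ between the mutants at those genes.

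Effects of opposite sign were present at 241 of the 265 called genes and at 3615 of all 6235. Both effects passed 1.5-fold in opposite directions at 41 called genes. A call needs a large difference between the effects, which itself favours opposite signs. The counts among called genes therefore follow in part from the call rule. Across all genes tested the effects had a Pearson r of -0.17 and a Spearman rho of -0.22. Across the 5314 genes averaging 10 CPM or more, r was -0.21. The groups share no library, and genes are not independent replicates, so these values describe the tables only.

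**Figure D1:**
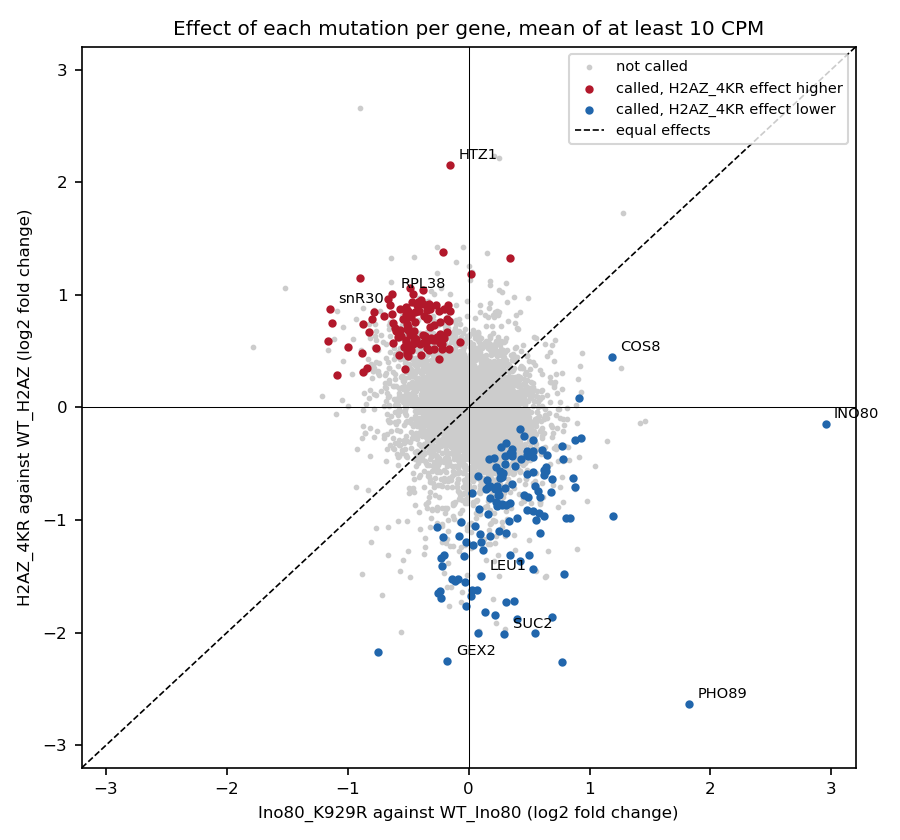
Each point is 1 gene averaging 10 CPM or more, with the log2 fold change of Ino80_K929R on the horizontal axis and of H2AZ_4KR on the vertical axis (LEU2 is not drawn). Red points are called with the H2AZ_4KR effect higher, blue points with it lower. Called genes lie away from the dashed line of equal effects, most of them at the upper left and lower right.

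A difference of differences can come from any of the 4 groups, so the libraries were also read directly. For 227 of the 265 called genes (85.7%) the 3 libraries of at least 1 group lay all above or all below the other 9, against 2101 of the 6235 tested (33.7%). WT_H2AZ was the group most often apart: it lay below the other 9 libraries for 94 called genes and above them for 76, against 8.02% and 8.93% of all genes tested. H2AZ_4KR lay below for 47 called genes and above for 8, against 6.27% and 3.64% of all. WT_Ino80 lay above for 31 and below for 29 (4.06% and 4.68% of all), and Ino80_K929R above for 3 and below for 8 (0.609% and 0.85% of all). A called gene can be counted under more than 1 group. The calls come from the same libraries, and the test favours groups that lie cleanly apart. The higher shares among called genes therefore follow in part from the call rule. WT_H2AZ also had the smallest replicate spread (0.13, against 0.284 in WT_Ino80), which makes it easier for that group to stand apart. The wild types themselves differed at 2036 genes (32.7%) under the same rule, and a constant offset between the tables cancels in the difference.

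The genes carrying the mutations were called on opposite sides. HTZ1 (YOL012C, sacCer3 chromosome XV from 303579 to 303983), which encodes H2A.Z, stood at 369, 374 and 487 CPM in H2AZ_4KR, against 96.6, 86.5 and 93.9 CPM in WT_H2AZ. It stood at 133, 123 and 134 CPM in Ino80_K929R, against 164, 129 and 140.1 CPM in WT_Ino80. The H2AZ_4KR libraries lay above all others, and the Ino80 groups overlapped. The log2 difference was 2.30 ± 0.19 (SE, adjusted p = 7.48e-05).

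INO80 (YGL150C, chromosome VII from 221104 to 225573) gave the mirror image. It stood at 164, 155 and 129 CPM in H2AZ_4KR, against 181, 147 and 169 CPM in WT_H2AZ. It stood at 1176, 1070.2 and 1249 CPM in Ino80_K929R, against 144, 160.5 and 147 CPM in WT_Ino80. Only the Ino80_K929R libraries stood apart, and the log2 difference was -3.10 ± 0.19 (SE, adjusted p = 2.35e-06). Level and substitution go together in both mutants and cannot be told apart. The model YGL149W overlaps INO80, and the counting used no strand. No other member of the INO80 complex list (15 tested) or of the H2A.Z and SWR1 list (17 tested) was called, and none of the 13 NuA4 genes was.

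LEU2 (YCL018W), which encodes the isopropylmalate dehydrogenase of leucine synthesis and is deleted in the BY4741 background, had 158, 122 and 159 CPM in H2AZ_4KR and 0 fragments in all 3 WT_H2AZ libraries. It had 159, 158 and 110.3 CPM in Ino80_K929R, against 209, 147 and 152 CPM in WT_Ino80. WT_H2AZ was thus the one group without LEU2 RNA. Set against a floor of 3 fragments per library (0.161 CPM), LEU2 was at least 911-fold higher in H2AZ_4KR than in WT_H2AZ. It was at 0.841 of the wild-type level in Ino80_K929R, and the ratio of the changes was at least 1080. HIS3, which carries an internal deletion in BY4741, was detected in every library and was not called (log2 difference -0.92 ± 0.29, adjusted p = 0.0812). MET17 had 0 fragments in all 12 libraries.

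Other genes of leucine and branched-chain amino acid metabolism went the other way. Leu3, a transcription factor that senses the leucine precursor isopropylmalate, binds a palindrome of CCGG, a short gap and CCGG. Of the 13 genes tested in the list of leucine genes and Leu3 targets, LEU2 was called higher and 4 were called lower. Together these were 38.5% of the list, against 4.25% of all genes. The median difference was -0.49, against -0.02 over all genes tested. LEU1, the isopropylmalate isomerase, had 171, 156 and 153 CPM in H2AZ_4KR, against 474, 377 and 503 CPM in WT_H2AZ. It had 94.3, 107 and 109.8 CPM in Ino80_K929R, against 76, 111 and 102 CPM in WT_Ino80. The WT_H2AZ libraries alone stood high. The log2 difference of LEU1 was -1.60 ± 0.22 (SE, adjusted p = 0.00642).

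BAP2, a permease for branched-chain amino acids, had 544, 504 and 597 CPM in H2AZ_4KR, against 1016, 997 and 1233 CPM in WT_H2AZ. It had 566, 481 and 515 CPM in Ino80_K929R, against 334, 421 and 426 CPM in WT_Ino80. Here too WT_H2AZ lay above all other libraries, and WT_Ino80 lay below them. The log2 difference was -1.38 ± 0.20 (adjusted p = 0.0101). BAT1, the mitochondrial branched-chain aminotransferase, differed by -1.10 ± 0.18 (adjusted p = 0.0123), and LEU4, an isopropylmalate synthase, by -1.15 ± 0.23 (adjusted p = 0.0274). The list had 3 to 6 called with any 1 library left out. Whether the lack of LEU2 RNA in WT_H2AZ has a part in these values was not tested.

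The Leu3 motif CCGGNNCCGG, which reads the same on both strands, was found in 8 of 5814 promoters searched, 0.138% of them. A promoter was taken as the 300 bases from 250 before to 50 after the gene start. All 8 sites are printed because 4 of their genes, LEU2, LEU1, BAT1 and FSF1, were called. Each is read 5′ to 3′ on the strand of its gene from the RefSeq R64 genome, the assembly with the coordinates of sacCer3, with the motif in capitals.
LEU2, chrIII:91117-91144, plus strand: gtgagagcgCCGGAACCGGcttttcata
LEU1, chrVII:478851-478878, minus strand: acgaaaattCCGGGACCGGcgaaatttg
BAT1, chrVIII:517376-517403, plus strand: ttgtgtttgCCGGTACCGGcctttaagc
FSF1, chrXV:832177-832204, minus strand: tactggcgtCCGGTACCGGagcgtacca
GAT1, chrVI:95940-95967, plus strand: gtgccactcCCGGCCCCGGtattagcat
NPA3, chrX:572075-572099, minus strand: ttggtatggCCGGATCCGGtaaaac
DRE2, chrXI:576129-576156, minus strand: tgacatatcCCGGTACCGGaataagtcc
BRO1, chrXVI:393877-393904, plus strand: tgcaggacgCCGGTTCCGGgttaggatc

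The sites of LEU2, LEU1 and BAT1 lay upstream, beginning 198, 217 and 147 bases before the gene start. FSF1, a mitochondrial sideroflexin-like protein gene, was called in the other direction from LEU1 and BAT1 (log2 difference 0.81 ± 0.18, adjusted p = 0.0337). The 4 genes that were not called had differences from -0.63 (BRO1) to 0.54 (NPA3), and the NPA3 site lies after the gene start. BAP2 and LEU4 have no exact match in this window. A match is a string of letters and not a measured binding site.

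Ribosomal protein genes made up the largest block of genes with a higher H2AZ_4KR effect. Of 136 cytosolic ribosomal protein genes tested, 42 were called higher, none lower and 94 not called, so 30.9% were called against 4.25% of all genes. The median log2 difference was 1.02, made up of a median of 0.64 in H2AZ_4KR and of -0.36 in Ino80_K929R. The H2AZ_4KR effect was above 0 for 135 of the 136 and the Ino80_K929R effect for 8. Many of these genes are paralog pairs, and reads that mapped to several places were not counted, so values of single members are uncertain.

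RPL18B, a large-subunit protein gene, is the ribosomal gene with the smallest adjusted p and 1 of the 23 genes called under each omission of a library. It had 389.7, 294 and 339 CPM in H2AZ_4KR, against 218, 185 and 220.3 CPM in WT_H2AZ. It had 374, 378 and 448 CPM in Ino80_K929R, against 592, 560.1 and 546 CPM in WT_Ino80. Neither pair of groups overlapped, so the effects ran in opposite directions in every library of the 4 groups. The log2 difference was 1.22 ± 0.19 (adjusted p = 0.0121).

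RPL38, the called ribosomal protein gene with the largest difference, was high in 1 library of WT_Ino80. It had 867, 1102 and 1026 CPM in H2AZ_4KR, against 401, 566 and 522 CPM in WT_H2AZ. It had 815, 815 and 847 CPM in Ino80_K929R, against 1783, 1012 and 1048 CPM in WT_Ino80. That library, WT_Ino80 replicate 1, stood far above the other Ino80 libraries, and both mutants lay clear of their wild types. The log2 difference was 1.64 ± 0.30 (adjusted p = 0.0193) with all libraries and 1.32 (adjusted p = 0.0114) without WT_Ino80 replicate 1.

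The same library stood apart over the whole list. The median level of ribosomal protein genes, on the log2 scale relative to the mean of the 12 libraries, was 0.22, 0.16 and 0.15 in H2AZ_4KR and -0.58, -0.57 and -0.30 in WT_H2AZ. It was -0.05, 0.02 and 0.02 in Ino80_K929R and 0.76, 0.05 and 0.12 in WT_Ino80. WT_H2AZ lay below all other libraries for 38 of the 42 called genes. Without WT_Ino80 replicate 1 the median Ino80_K929R effect was -0.09 in place of -0.36, the median difference was 0.73, and 64 genes were called. The opposite movement in the Ino80 groups therefore rested largely on that library, while the movement in the H2AZ groups did not involve it. The number called was 1 to 13 when any 1 library of H2AZ_4KR, WT_H2AZ or Ino80_K929R replicate 1 or 2 was left out, and 53 to 93 when any 1 of the other 4 was.

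**Figure D2:**
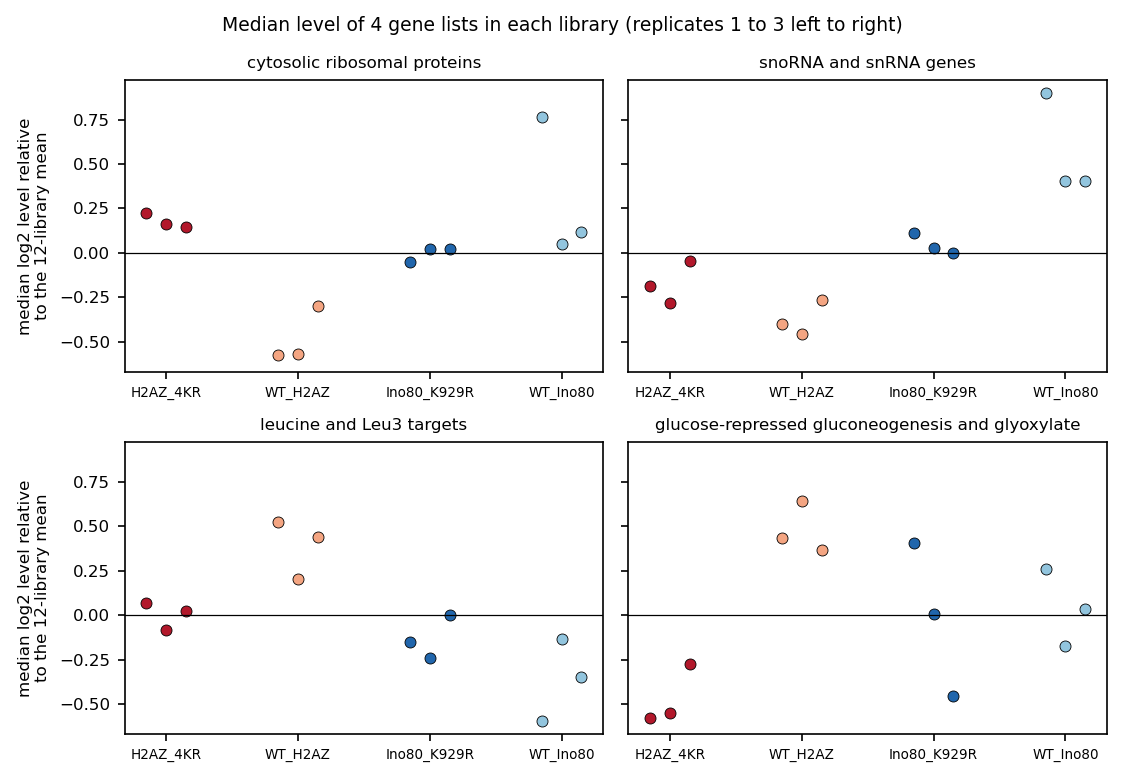
The median log2 level of 4 gene lists in each library, relative to the mean of the 12 libraries, with replicates 1 to 3 of a group from left to right. Ribosomal protein genes were low in the 3 WT_H2AZ libraries and high in WT_Ino80 replicate 1, snoRNA genes were high in all 3 WT_Ino80 libraries, and the glucose-repressed genes spread widely within Ino80_K929R.

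Small nucleolar and spliceosomal RNA genes were the other large block. SnoRNAs guide the modification and cleavage of ribosomal RNA. Of 71 such genes tested, 13 were called higher (18.3%, against 1.99% of all genes) and none lower, with a median difference of 0.96, from a median of 0.32 in H2AZ_4KR and of -0.69 in Ino80_K929R. WT_Ino80 lay above all other libraries for 10 of the 13, and WT_H2AZ lay below all others for 7 of them. Without WT_Ino80 replicate 1 the median difference was 0.80 and 14 were called. The count was 3 or 4 without any 1 of the WT_H2AZ replicates, H2AZ_4KR replicates 2 and 3 and Ino80_K929R replicates 1 and 2, and 9 to 14 without any 1 of the other 5 libraries.

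snR30, which is required for cleavage of the 18S ribosomal RNA precursor, had 54.7, 44.8 and 60.3 CPM in H2AZ_4KR, against 31.0, 22.7 and 33.4 CPM in WT_H2AZ. It had 175, 178 and 129 CPM in Ino80_K929R, against 442, 266 and 359 CPM in WT_Ino80. Neither pair of groups overlapped, and every Ino80-table library lay above every H2AZ-table library. On the log2 scale snR30 differed by 2.02 ± 0.30 (adjusted p = 0.0101). snR128, the U14 snoRNA, differed by 2.42 ± 0.38 (adjusted p = 0.0121) at a mean of 4.80 CPM in H2AZ_4KR and 2.36 CPM in WT_H2AZ. snR63, a methylation guide, differed by 1.63 ± 0.26 (adjusted p = 0.0123).

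Gene length moved with the difference. Genes called higher had a median length of 513 bases, genes called lower 1578 bases and all genes tested 1137 bases. When genes averaging 10 CPM or more were ordered by length and cut into 5 bins, the median log2 difference was 0.41, 0.07, -0.04, -0.18 and -0.23 going from the shortest bin to the longest. Without ribosomal protein genes the shortest bin had 0.33. Across these genes, log2 length had an r of -0.39 with the difference, -0.14 with the H2AZ_4KR effect and 0.56 with the Ino80_K929R effect.

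A single library held most of the relation with the Ino80_K929R effect and part of that with the difference. The change in relative level per doubling of gene length was -0.34 (log2) in WT_Ino80 replicate 1 and lay between -0.04 and 0.12 in the other 11 libraries. Without that library, r of length was -0.19 with the difference and 0.21 with the Ino80_K929R effect, and the shortest bin had a median difference of 0.21. With the H2AZ_4KR effect r was -0.134, against -0.135 with all libraries. With a length trend removed from every library (loess), 278 genes were called, 195 of them among the 265, and the ribosomal protein list had 41 called and a median of 0.75. The snoRNA list then had 9 called higher, 1 called lower and a median of 0.54. Whether fragment size or RNA quality differed between the libraries was not tested.

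**Figure D3:**
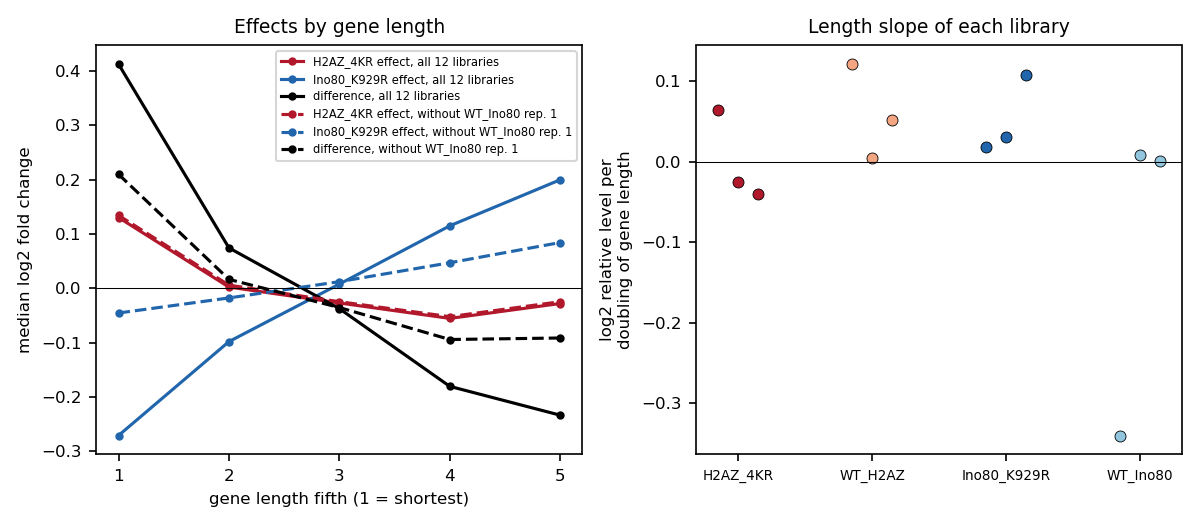
Left, median log2 fold change over 5 bins of genes ordered by length, for each mutant and for the difference, with all 12 libraries (solid) and without WT_Ino80 replicate 1 (dashed). Right, the log2 change of relative level per doubling of gene length in each library, with replicates 1 to 3 from left to right. WT_Ino80 replicate 1 lies at -0.34, apart from the other 11 libraries.

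On the lower side, a list of genes that glucose represses held 5 calls. These genes serve growth on other carbon sources and are kept low in YPD. Of 24 tested, 5 were called lower (20.8%, against 2.26% of all genes), none higher and 19 not called. The median difference was -0.87, with a median effect of -0.97 in H2AZ_4KR and of -0.01 in Ino80_K929R. The Ino80_K929R median rested on single libraries: it was 0.28 without Ino80_K929R replicate 3, 0.21 without WT_Ino80 replicate 1 and 0.45 without both, where the median difference was -1.39. All 5 called genes were highest in the 3 WT_H2AZ libraries.

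SUC2, the secreted invertase, had 407, 439.8 and 469 CPM in H2AZ_4KR, against 1968, 1763 and 1592 CPM in WT_H2AZ. It had 508, 366 and 182 CPM in Ino80_K929R, against 288, 208 and 365 CPM in WT_Ino80. The H2AZ groups were far apart and the Ino80 groups overlapped. SUC2 differed by -2.31 ± 0.42 (adjusted p = 0.0193). ADR1 and CAT8, transcriptional activators of this program, differed by -2.26 ± 0.40 and -1.65 ± 0.37 (adjusted p = 0.0189 and 0.0349). YAT2, a carnitine acetyltransferase, differed by -2.06 ± 0.34 (adjusted p = 0.0123), and the lactate permease gene JEN1 by -2.04 ± 0.48 (adjusted p = 0.0394).

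These genes varied most within Ino80_K929R. The median level of the list was -0.58, -0.55 and -0.28 (log2 relative level) in H2AZ_4KR, 0.43, 0.64 and 0.36 in WT_H2AZ, 0.41, 0.01 and -0.46 in Ino80_K929R and 0.26, -0.17 and 0.04 in WT_Ino80. The number called was 10 without Ino80_K929R replicate 3 and 5 to 7 without any 1 WT_Ino80 replicate. It was 0 to 3 without any 1 of the other 8 libraries. Hexose transport and glucose-sensing genes had a median of -1.09, but 1 of 21 was called (4.76%, near the 4.25% of all genes). It was HXT1, a low-affinity hexose transporter gene (log2 difference -1.35 ± 0.35, adjusted p = 0.0485). That list had 10 called without Ino80_K929R replicate 3, 2 without WT_Ino80 replicate 1, 5 without WT_Ino80 replicate 3 and 0 without any 1 of the other 9 libraries. Trehalose and glycogen genes had a median of -0.78 with 1 of 20 called, the trehalase gene ATH1, a share of 5.0% that is also near 4.25%. None of 48 stress genes of the Msn2 and Msn4 type was called (median -0.22).

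Fatty acid and propionate genes were called lower for 4 of 26, 15.4% against 2.26% of all genes (median -0.37). FAT3, which takes part in fatty acid uptake, had 28.2, 39.8 and 45.7 CPM in H2AZ_4KR, against 176, 169.5 and 110.3 CPM in WT_H2AZ. It had 104, 71.8 and 33.6 CPM in Ino80_K929R, against 50.5, 47.8 and 44.7 CPM in WT_Ino80. PDH1, a 2-methylcitrate dehydratase of propionate metabolism, was lowest in H2AZ_4KR, at 5.85, 7.67 and 6.95 CPM, against 25.5, 26.9 and 21.97 CPM in WT_H2AZ. Both genes differed by -2.55, with SE of 0.46 for FAT3 and 0.42 for PDH1 (adjusted p = 0.0192 and 0.0123). The acyl-CoA synthetase gene FAA2 and the peroxisomal transporter gene PXA1 were the other called members, at -1.55 and -1.34. The count of called members ran between 1 and 7 with 1 library left out, the most without Ino80_K929R replicate 3.

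Phosphate genes were called lower for 5 of 30, 16.7% against 2.26% of all genes (median -0.37). PHO89, a sodium-phosphate cotransporter, had the largest negative difference among called genes averaging 10 CPM or more. It had 8.69, 13.0 and 19.4 CPM in H2AZ_4KR, against 88.8, 122 and 43.7 CPM in WT_H2AZ. It had 82.2, 33.6 and 14.7 CPM in Ino80_K929R, against 18.1, 11.8 and 7.13 CPM in WT_Ino80. The H2AZ groups did not overlap and the Ino80 groups did. PHO89 differed by -4.46 ± 0.82 (adjusted p = 0.0193). PHO11, an acid phosphatase gene nearly identical to PHO12, was lowest in the H2AZ_4KR libraries and highest in the Ino80_K929R libraries, and it differed by -1.58 ± 0.28 (adjusted p = 0.0186). PHO12, GDE1 and PHO8 differed by -0.83, -0.98 and -0.87. Reads that mapped to both PHO11 and PHO12 were not counted, so the values of this pair are uncertain. The count of phosphate genes was 0 to 3 without any 1 library of H2AZ_4KR, WT_H2AZ or Ino80_K929R replicate 1 or 2, and 4 to 6 without any 1 of the other 4.

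Genes close to chromosome ends leaned the same way. This list is not separate from the others: it also holds PHO89 of the phosphate list and COS8 of the COS family (below). Some calls are therefore counted under more than 1 list. Of 227 tested within 20 kb of an end, 24 were called lower and 2 higher, 11.5% together against 4.25% of all genes, and the median difference was -0.44. Unlike the leucine and glucose-repressed genes, H2AZ_4KR was the group that stood apart here: it lay below all other libraries for 17 of the 26. The count was 5 to 13 without any 1 library of H2AZ_4KR, WT_H2AZ or Ino80_K929R replicate 1 or 2, and 26 to 38 without any 1 of the other 4.

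GEX2, a glutathione exchanger gene on chromosome XI from 661442 to 663289, had 2.56, 2.42 and 3.60 CPM in H2AZ_4KR, against 15.3, 9.84 and 15.8 CPM in WT_H2AZ. It had 40.6, 49.3 and 35.1 CPM in Ino80_K929R, against 45.9, 40.6 and 54.7 CPM in WT_Ino80. The H2AZ_4KR libraries were the lowest, the WT_H2AZ libraries came next, and the Ino80 groups lay above both and overlapped each other. GEX2 differed by -2.08 ± 0.32 (adjusted p = 0.0121). YIR042C, an uncharacterised gene, had 3.51, 3.75 and 3.23 CPM in H2AZ_4KR, against 10.6, 16.2 and 11.8 CPM in WT_H2AZ, and differed by -2.28 ± 0.29 (adjusted p = 0.00553). With HTZ1, INO80 and LEU2 it was 1 of only 4 genes that passed a test against a 1.5-fold limit (glmTreat in edgeR). YDR541C and AAD3, which encode oxidoreductase-like proteins, differed by -1.42 and -1.69 (adjusted p = 0.00642 and 0.0121).

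The COS family, membrane proteins encoded near telomeres, held COS8, the only called gene beside INO80 that was also called in Ino80_K929R. COS8 had 127, 110.0 and 126 CPM in H2AZ_4KR, against 94.9, 85.8 and 85.2 CPM in WT_H2AZ. It had 100.04, 113 and 85.3 CPM in Ino80_K929R, against 38.4, 47.0 and 45.4 CPM in WT_Ino80. Both mutants lay above their wild types, and the WT_Ino80 libraries lay below all others. The log2 effects were 0.45 in H2AZ_4KR and 1.19 in Ino80_K929R, a difference of -0.74 ± 0.19 (adjusted p = 0.0464). COS10 and COS12 were called too, at -2.09 and -1.43, with H2AZ_4KR effects of -1.72 and -0.75 and Ino80_K929R effects of 0.37 and 0.68. COS genes are closely related in sequence and reads that mapped to several places were not counted, so values of single members are uncertain. The list had 3 of 12 called, against 4.25% of all genes tested. The count was 0 or 1 without any 1 library of H2AZ_4KR, WT_H2AZ or Ino80_K929R replicate 1 or 2. It was 4 to 6 without any 1 of the other 4.

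**Figure D4:**
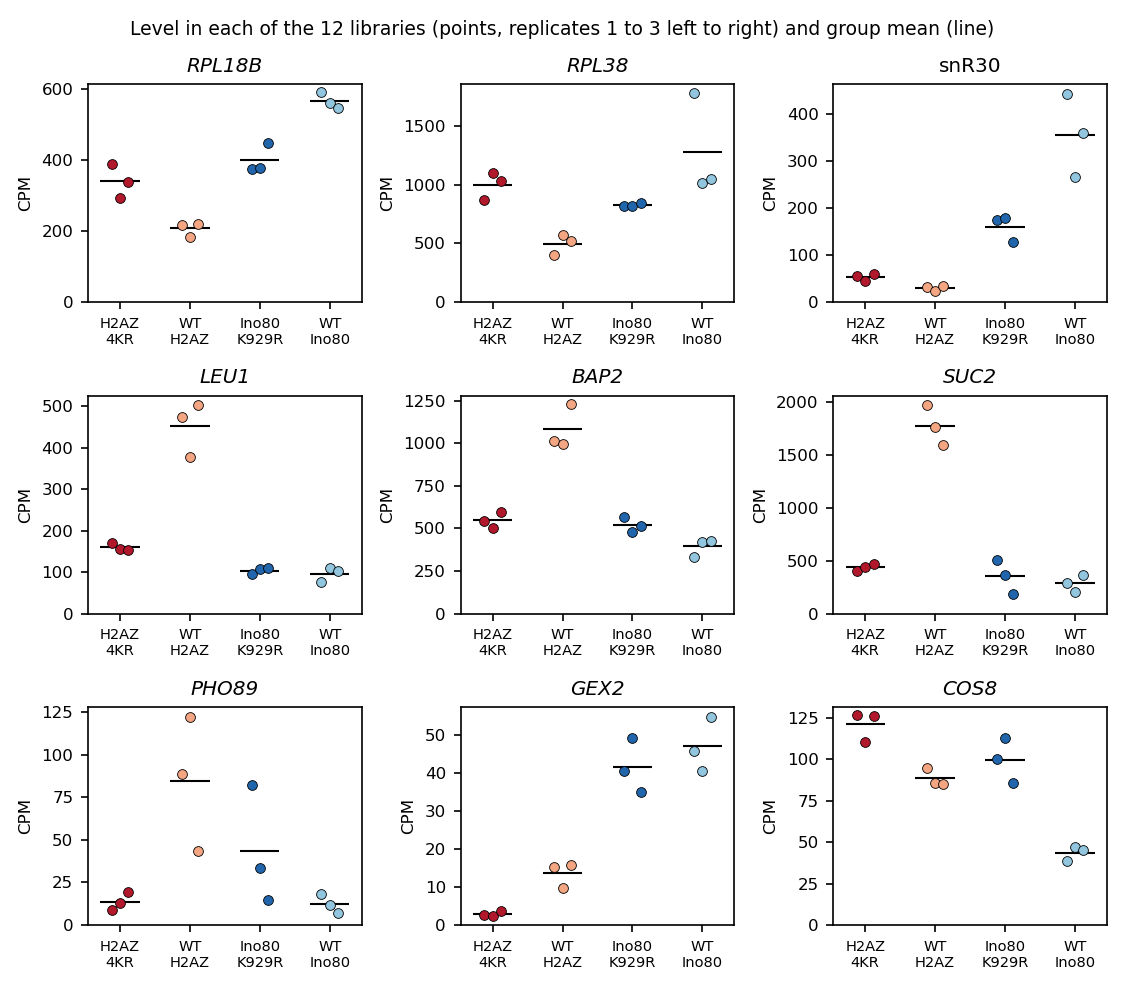
CPM of 9 genes in each library, with replicates 1 to 3 of a group from left to right and a line at the group mean. WT_H2AZ stands high for LEU1, BAP2 and SUC2, H2AZ_4KR stands low for GEX2, and WT_Ino80 stands low for COS8 and high for RPL18B and snR30.

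Smaller groups gave single genes. In NAD synthesis, BNA5 (kynureninase) and NRT1 (a nicotinamide riboside transporter) were called lower, at -1.38 ± 0.21 and -1.11 ± 0.18 (adjusted p = 0.0121 and 0.0123). They were 2 of 20 tested, against 4.25% of all genes called in either direction and 2.26% called lower. The list's median was -0.18, and 2 to 4 of its genes were called with 1 library left out. So few calls describe these genes and not the list. H2AZ_4KR lay below and WT_H2AZ above all other libraries for both BNA5 and NRT1, and both were called under each omission of a library. Of 33 pheromone-response genes, TEC1, FIG2 and FUS1 were called lower, 9.09% against the same 4.25%. They were led by TEC1, a transcription factor of filamentous growth (-1.52 ± 0.26, adjusted p = 0.0136). Of 51 Gcn4 amino acid genes, 3 were called lower, among them ARG4, the argininosuccinate lyase gene, at -1.02 on the log2 scale. That share, 5.88%, lies near the 4.25% called over all genes, and the list's median was 0.03. With 1 library left out, the pheromone list had 0 to 6 called and the Gcn4 list 0 to 5. In meiosis, SPS2, a sporulation gene, and IME1, the inducer of meiosis, were called lower at -1.998 and -1.20. They were 2 of 27 tested (7.41%, against the same 4.25%), and 1 to 4 were called lower with 1 library left out.

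The iron regulon held 2 calls on the higher side among 34 genes tested, a share of 5.88% near the 4.25% of all genes. FIT2, a cell wall mannoprotein that retains siderophores, had 1254, 829 and 1348 CPM in H2AZ_4KR, against 552, 343 and 425 CPM in WT_H2AZ. It had 463, 434 and 276 CPM in Ino80_K929R, against 601, 371 and 384 CPM in WT_Ino80. Only H2AZ_4KR stood high. The log2 difference of FIT2 was 1.59 ± 0.38 (adjusted p = 0.0394), and that of ARN1, a siderophore transporter gene, was 0.98 ± 0.25 (adjusted p = 0.0464). With 1 library left out, 0 to 4 of the list were called higher and 0 to 2 lower, and DESeq2 called 5 higher and 2 lower. The list's median of 0.07 turned negative under total-count scaling. All 10 core and linker histone genes had a difference above 0, and 1, HTA2, was called (1.05 ± 0.25, adjusted p = 0.0394). A single call in so short a list says little against 4.25% of all genes. The list's median of 0.46 was 0.29 without WT_Ino80 replicate 1, and the median Ino80_K929R effect went from -0.28 to -0.05. The median log2 level of these genes was 0.72 in that library, against -0.06 and 0.18 in its replicates. With the length trend removed the median difference was 0.22.

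**Figure D5:**
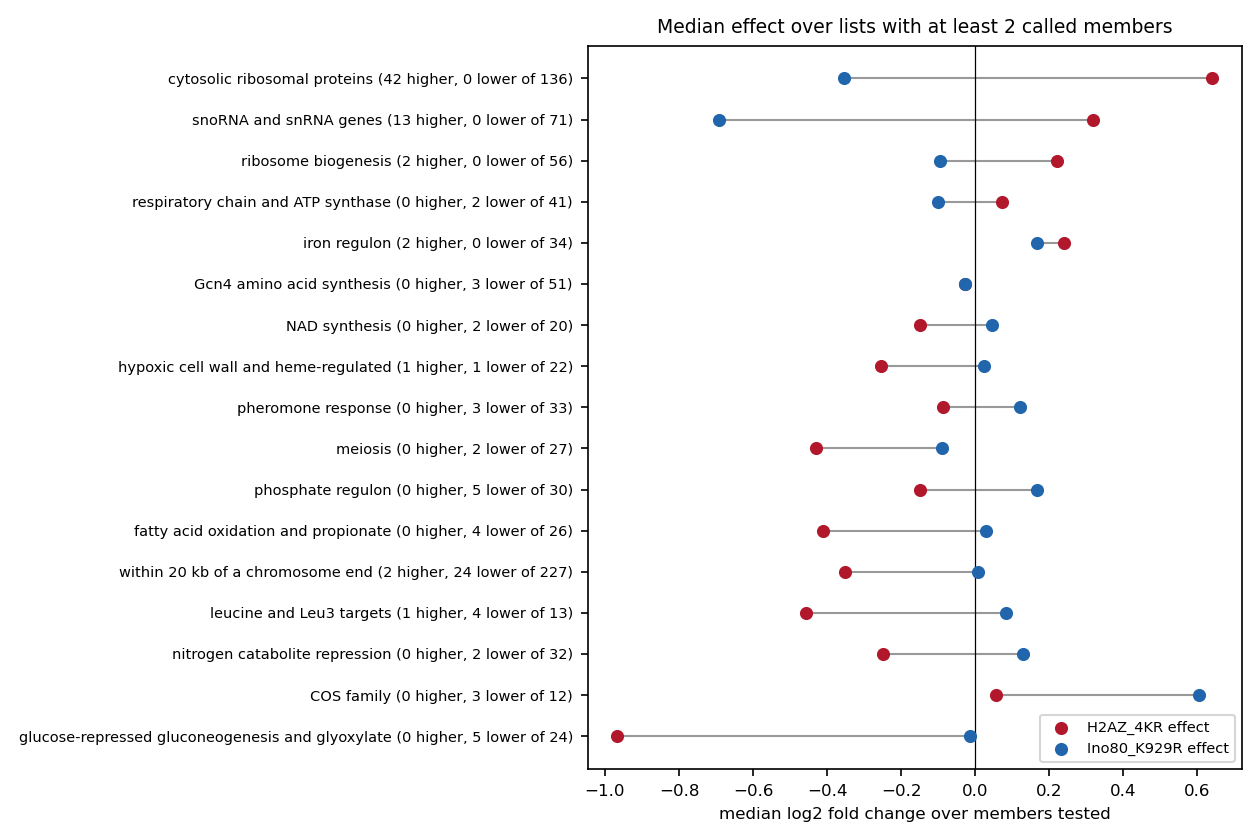
Median log2 fold change of the members tested, in H2AZ_4KR (red) and Ino80_K929R (blue), for the 17 lists with at least 2 called members, ordered by the median difference. The counts beside each name are the members called with the H2AZ_4KR effect higher and lower. The medians of the ribosomal protein and snoRNA lists lie above 0 in H2AZ_4KR and below 0 in Ino80_K929R, where no member of either list was called on its own.

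The called genes most robust to the choice of libraries were 23 that passed under each of the 12 omissions of 1 library. Beside HTZ1, INO80, LEU2, LEU1, BAP2, RPL18B, snR30, snR63, snR128, BNA5, NRT1, SPS2, PDH1, GEX2, YIR042C, YDR541C and AAD3 they held AIF1, BIO2, MST28, PDR15, TAD2 and UBP11. BIO2, the biotin synthase, had 37.3, 39.8 and 40.5 CPM in H2AZ_4KR, against 129, 118 and 118 CPM in WT_H2AZ, with 147, 125 and 101 CPM in Ino80_K929R, against 157, 136 and 146 CPM in WT_Ino80. H2AZ_4KR alone was low, and the log2 difference was -1.39 ± 0.19 (adjusted p = 0.00642). UBP11, a ubiquitin protease gene, differed by -2.09 ± 0.33 (adjusted p = 0.0121), and TAD2, a subunit of a tRNA adenosine deaminase, by 1.55 ± 0.25 (adjusted p = 0.0123).

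Effects past 1.5-fold on the same side were present at 14 genes up and 55 genes down over all genes tested. Of these, 2 up and 9 down averaged 10 CPM or more. With no such limit and no test, 113 genes were past 1.5-fold up in H2AZ_4KR and down in Ino80_K929R, and 54 the other way. Among the 9 genes down in both, chosen after their values were seen, ADH2, the glucose-repressed alcohol dehydrogenase, had log2 effects of -0.71 in H2AZ_4KR and -0.93 in Ino80_K929R, with a difference of 0.22 (95% interval -0.71 to 1.15). PDC6, a minor pyruvate decarboxylase, had -1.07 and -0.77, with a difference of -0.30 (95% interval -0.98 to 0.37). Neither Ino80_K929R effect passed the test on its own (adjusted p = 0.313 for ADH2 and 0.284 for PDC6), and intervals this wide do not show that the mutations act alike.

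The shares of promoters with the other 11 motifs searched on either strand follow as a description, with no test made. TGACTC, the Gcn4 motif, was in 6.42% of the 109 promoters of genes called higher, 11.6% of the 138 of genes called lower and 8.14% of all 5814. AGGGG, the Msn2 and Msn4 motif, was in 22%, 23.9% and 21.9% of the same sets, and CACGTG, the Pho4 and Cbf1 motif, in 1.83%, 2.17% and 2.91%. GCGATGA, the PAC motif of ribosome biogenesis genes, was in 10.1%, 5.80% and 6.88%. CGCGAAA, the SBF motif of G1/S genes, was in 2.75%, 0.725% and 3.63%, and ACGCGT, the MBF motif, in 2.75%, 0.725% and 3.15%, where 0.725% is 1 promoter of 138. GCGGGG, the Mig1 motif, was in 2.75%, 3.62% and 2.6%, and GCACCC, the Aft1 motif, in 6.42%, 3.62% and 4.25%. TGAAACA, the Ste12 motif, was in 5.5%, 7.97% and 7.41%, and GCCGCC, the Ume6 motif, in 6.42%, 6.52% and 5.04%. CATGTG, the Ino2 and Ino4 motif, was in 3.67%, 6.52% and 6.93%.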

How the data were processed

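The authors deposited 2 tables of raw fragment counts per gene, with featureCounts 2.0.1 per the file headers, without strand and without multi-mapped fragments. Reads were aligned with Bowtie 0.12.2 to sacCer3, per the submitters' processing notes. Of 7127 gene IDs in both tables, 6047 matched an R64 locus tag, 6038 with the same start and end.

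The counts were joined by gene ID, and edgeR 4.0.16 (R 4.3.3) was fitted once to all 12 libraries with group means, TMM factors and its quasi-likelihood F test. Low genes were dropped by filterByExpr (minimum count 10), and p-values were adjusted by Benjamini-Hochberg over 6235 genes. SE of log2 values come from that fit. CPM are scaled by TMM. Floors cover counting error only. Named genes were HTZ1, INO80, the auxotrophic markers, the 12 highest and 12 lowest called genes averaging 10 CPM or more, and up to 4 called members of each list with at least 2; any other gene named was picked with its values in view. The comparison, the gene lists and the motifs were chosen with earlier results of these data known. The list names FLO8, MEL1 and WSC1 matched no ID.

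On counts simulated from these libraries, the rule called 4, 12, 37 and 41 of 50 genes with differences of 1.5-, 2-, 3- and 4-fold, and 2 of 6035 unchanged genes. Differences of 2-fold or less were thus mostly missed. The simulation gave each gene 1 spread in all libraries and placed the fold in H2AZ_4KR. It held neither the unequal spreads of the groups nor the length trend of WT_Ino80 replicate 1, so these rates may not hold for the real counts.

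Alternatives were DESeq2 1.42.0, limma-voom (limma 3.58.1), RLE factors, total counts, no filter, a replicate block, a length offset (loess, span 0.5), glmTreat, other fold limits, each table alone and each library left out. A spread per group and leaving out both WT_Ino80 replicate 1 and Ino80_K929R replicate 3 were added after seeing the data.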

Additional observations from a re-analysis of the deposited data

How the results depend on the processing

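All 265 called genes kept the sign of their difference in each of the 22 refits, but their number moved widely. With 1 library left out, the count was 26 to 595 (7 to 244 higher, 19 to 355 lower). It was 26 to 44 without any 1 of H2AZ_4KR replicates 2 and 3, the WT_H2AZ replicates and Ino80_K929R replicates 1 and 2, and 121 without H2AZ_4KR replicate 1. It was 361, 426, 429 and 595 without WT_Ino80 replicate 1, 2 or 3 or Ino80_K929R replicate 3. With both libraries of low replicate correlation left out, a choice made after seeing the data, 1074 were called (479 higher, 595 lower), DESeq2 called 729 (376 and 353) and glmTreat 4 (2 and 2). Total-count scaling gave 274 lower calls. The cause was not tested.

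In H2AZ_4KR, 83 to 560 genes were called with 1 library left out, 703 without both libraries, 711 with a spread per group, 576 by DESeq2 and 741 in its own table alone. In Ino80_K929R the counts were 2 to 4, 6 without both, 45 by DESeq2 and 1 in its own table alone. The correlation of the effects was -0.27 to -0.0465 with 1 library left out and -0.26 without both. Called genes with 1 group apart numbered 24 to 528 with 1 library left out, 955 without both and 573 by DESeq2.

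No label says that replicate numbers pair the libraries, and the deviations of the libraries do not settle it. Deviations of same-numbered libraries correlated at 0.28, 0.32 and -0.10 in the H2AZ table and 0.52, -0.60 and -0.20 in the Ino80 table. Those of unlike-numbered libraries ran from -0.44 to 0.21 in the H2AZ table and from -0.69 to 0.77 in the Ino80 table. With the replicate block, 40 genes were called (13 higher, 27 lower), 216 in H2AZ_4KR, and 35 had 1 group apart.

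List medians near 0 changed sign for the respiratory chain (-0.0549 by total counts, -0.0323 with the length offset, -0.0390 without both libraries), Gcn4 genes (-0.15 by total counts, -0.0574 without both, and -0.0564 without WT_H2AZ replicate 2 to 0.0993 without H2AZ_4KR replicate 2) and the iron regulon (-0.10 by total counts, and -0.15 without WT_Ino80 replicate 2 to 0.2535 without Ino80_K929R replicate 3). The spread of the Ino80 libraries limits what a difference can show.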

Other observations

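A few called genes outside the naming rule are given here as single genes. They were picked from the called genes with their values in view, and they say nothing of a group. GAR1, a protein of H/ACA snoRNA particles, had 209, 278 and 308 CPM in H2AZ_4KR, against 158, 179 and 189 CPM in WT_H2AZ, and 306, 304 and 307 CPM in Ino80_K929R, against 418, 328 and 382 CPM in WT_Ino80, with a log2 difference of 0.89 ± 0.21 (adjusted p = 0.0394). The nucleolar protein gene NSR1 differed by 1.21. The ribosome biogenesis list, which holds neither gene, had 2 of 56 called higher and none lower. That share was 3.57%, against 4.25% of all genes called in either direction and 1.99% called higher. With 1 library left out, 0 to 9 of the list were called higher.

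ATG34, a receptor of selective autophagy, had 5.85, 7.79 and 8.90 CPM in H2AZ_4KR, against 28.8, 28.1 and 22.5 CPM in WT_H2AZ, and 32.8, 29.9 and 16.0 CPM in Ino80_K929R, against 28.8, 15.3 and 27.5 CPM in WT_Ino80, with a log2 difference of -1.95 ± 0.42 (adjusted p = 0.0303).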
